A study of Mus musculus with 6 samples.

Results

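The genes described here are 10 genes of the cerebellum, picked by symbol from the 55450 genes in each deposited count table: Gabra6, Cbln1, Cbln3, Zic1 and Zic2, which mark granule cells, Pcp2, Calb1 and Car8, which mark Purkinje cells, and the homeobox genes En2 and Barhl2. All 10 matched 1 Ensembl gene each and all 10 had enough counts to be tested. They were read in whole mouse brain from 3 animals lacking TRMT1L, a relative of the tRNA methyltransferase TRMT1 (KO), and 3 wild-type animals (WT), sequenced as total RNA above 200 bp. The labels give no strain, age, sex, treatment or way of making the KO allele, and no account of how the brains were dissected. They call the 3 libraries of a group biological triplicates. Libraries are called WT1 to WT3 and KO1 to KO3 by the number in their label.

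The cerebellum is folded cortex at the back of the brain, built around granule cells and Purkinje cells. Granule cells, the most numerous neurons of the brain, send parallel fibres to the dendrites of Purkinje cells, and Purkinje cells provide the sole output of the cerebellar cortex. Because these cells sit in a part of the brain that can be cut away at its peduncles, the amount of their RNA in a whole-brain extract depends on how much cerebellum went into the tube as well as on what each cell expresses. In bulk RNA fewer cells of a type and less RNA per cell cannot be told apart.

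Several of the 10 genes are not restricted to the cerebellum. Calb1 is also expressed in hippocampus, striatum and cortical interneurons, Zic1 and Zic2 in septum, thalamus and meninges, Cbln1 in thalamus, and En2 in midbrain. Barhl2 is best known from developing diencephalon, hindbrain, spinal cord and retina, so the label of a granule or Purkinje cell gene rests on the other genes more than on this one. Gabra6, Cbln3 and Pcp2 are the most restricted of the 10 within the brain.

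RefSeq promoter windows (GRCm38.p6) were found for 5 of the 10 genes, Gabra6, Cbln3, Zic1, Pcp2 (4 starts) and Barhl2. The 250 bases before the start are printed for Gabra6 and Barhl2, the 2 genes whose windows hold no base of an annotated exon, because they stand at the 2 ends of the 10 genes in kind, an ion channel subunit of finished granule cells and a developmental transcription factor. Capitals mark matches to 4 motifs searched on both strands: the TATA box TATAAA, the E-box CANNTG, the nuclear factor I (NFI) core TTGGC and the ROR core AGGTCA. The Gabra6 window is chr11:42321073-42321322 and the Barhl2 window chr5:106458167-106458416, both on the minus strand and written 5′ to 3′.
Gabra6: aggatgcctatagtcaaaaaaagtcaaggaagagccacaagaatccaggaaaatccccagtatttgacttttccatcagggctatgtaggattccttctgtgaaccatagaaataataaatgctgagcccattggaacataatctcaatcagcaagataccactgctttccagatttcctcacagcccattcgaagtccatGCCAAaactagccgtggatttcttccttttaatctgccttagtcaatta
Barhl2: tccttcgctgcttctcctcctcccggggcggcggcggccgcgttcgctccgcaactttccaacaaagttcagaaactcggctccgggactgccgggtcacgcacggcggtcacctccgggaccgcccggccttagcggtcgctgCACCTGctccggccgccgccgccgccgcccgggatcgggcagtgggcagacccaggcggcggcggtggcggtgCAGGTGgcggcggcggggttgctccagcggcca

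The Gabra6 window had a GC content of 40.8% with 2 CpG dinucleotides, and the Barhl2 window 74.8% with 36. Gabra6 held 1 NFI core, written here on the opposite strand as GCCAA, and no match to the other motifs, while Barhl2 held 2 E-boxes and no match to the others. Of all 32851 promoter windows of this length, 41.5% held an NFI core and 66.2% an E-box, so both matches are common. These matches are a description of letters.

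Depth and the targeted gene were checked first. Counts in genes lay between 31201119 and 36145961 per library. Trmt1l had 1279, 1034 and 1158 counts in WT1 to WT3 and 93, 101 and 106 in KO1 to KO3, on the side that each label states. Reads in no gene made up 50.3% to 52.2% of mapped reads in WT and 48.6% to 49.8% in KO, reads mapping to several places 4.61% to 5.16% and 5.25% to 5.60%, and reads in several genes 0.784% to 0.808% and 0.863% to 0.909%. The groups did not overlap in any of these 3 shares, whose part in the results on cerebellar genes was not tested.

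The question that the design puts to these genes is whether their level in whole brain differed between KO and WT. None of the 10 passed the test. After Benjamini-Hochberg adjustment over 21237 genes, 0 of the 10 had an adjusted p-value under 0.05 by edgeR's quasi-likelihood method, against 0.00942% of all genes tested (2 genes). Likewise 0 of the 10 had an unadjusted p-value under 0.05, against 7.92% of all genes tested, and limma-voom also gave 0 of 10 by either measure. DESeq2 gave 0 of 10 without adjustment and 0 of the 7 to which it assigned an adjusted p-value, leaving out Pcp2, En2 and Barhl2. The unadjusted count was 2 without WT3 (Cbln3 and Calb1), beside 6.32% of all genes tested in that fit. It was 1 without KO1 (Zic2), beside 8.58%, and 2 with no low-count filter (Cbln3 and Calb1), beside 6.73%. For 0 of the 10 genes did the KO and WT libraries separate without overlap, against 14.4% of all genes tested. The median log2 fold change of KO over WT was -0.0045 over the 10 genes and 0.00014 over all genes tested, and 5 of the 10 lay above 0 (50.1% of all genes tested).

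**Figure D1:**
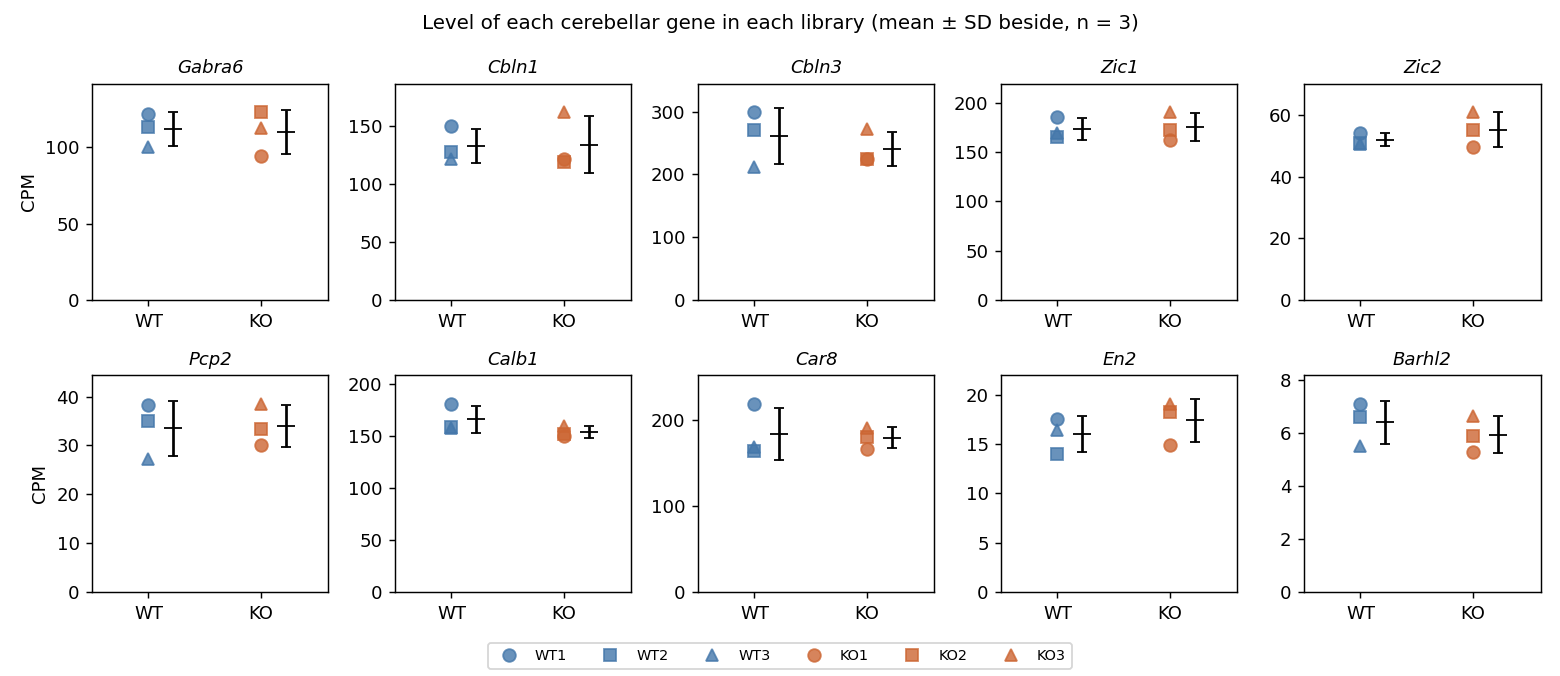
Level of each of the 10 genes in CPM (counts scaled to the library total, linear axis from 0) in the 3 WT and 3 KO libraries, with marker shapes for the replicate number and the mean ± SD (n = 3) beside each group. The groups overlap in every panel, WT1 is the highest WT library in all 10 panels and KO3 the highest KO library in 9.

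Among the granule cell genes, Gabra6 (ENSMUSG00000020428.13, chr11:42306437-42321072) encodes the alpha6 subunit of the GABA-A receptor, which carries tonic inhibition of granule cells. Its level, as CPM (counts over the library total scaled with TMM factors), was 122, 114 and 100.03 in WT1 to WT3 and 94.4, 123 and 113 in KO1 to KO3. The highest and the lowest library were both KO, so the groups overlapped along their whole range. The log2 fold change was -0.022 (SE 0.092, edgeR adjusted p = 0.969), with a 95% interval from -0.22 to 0.18.

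Cbln1 (ENSMUSG00000031654.16, chr8:87468405-87472609) and Cbln3 (ENSMUSG00000040380.14, chr14:55878913-55884392) encode secreted C1q-family proteins that granule cells release. CBLN1 bridges neurexin on the parallel fibre to the receptor GluD2 on the Purkinje cell, and CBLN3 is secreted together with CBLN1. Cbln1 stood at 150, 127 and 121 CPM in WT1 to WT3 and at 121, 119 and 162 CPM in KO1 to KO3. KO3 was thus the highest library and the other KO libraries were at or below the lowest WT library. Cbln3 stood at 299.6, 271 and 212 CPM in WT1 to WT3 and at 224, 225 and 272 CPM in KO1 to KO3. It had the widest range of the 10 genes, its highest library (WT1) being 1.41 times its lowest (WT3), and both of these are WT. Log2 fold changes were 0.013 (SE 0.11) for Cbln1 and -0.12 (SE 0.11) for Cbln3, with edgeR adjusted p-values of 0.986 and 0.813.

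Zic1 (ENSMUSG00000032368.14, chr9:91358058-91365810) and Zic2 (ENSMUSG00000061524.8, chr14:122475435-122479852) encode zinc finger transcription factors that granule cells keep from their progenitors. Zic1 was at 186, 165 and 170 CPM in WT1 to WT3 and at 162, 173 and 191 CPM in KO1 to KO3. Its levels stayed within 1.18-fold from lowest to highest, the narrowest range of the 10. Zic2 was at 54.3, 51.0 and 50.5 CPM in WT1 to WT3 and at 49.7, 55.1 and 61.0 CPM in KO1 to KO3. The lowest and the highest Zic2 library were both KO. Log2 fold changes were 0.015 for Zic1 (95% interval -0.12 to 0.15) and 0.090 for Zic2 (-0.067 to 0.25). Zic1 overlaps Zic4 on the opposite strand, with 60 bases of shared exon, which the strand-specific counting keeps apart.

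Among the Purkinje cell genes, Pcp2 (ENSMUSG00000004630.18, chr8:3623371-3625545) encodes a small modulator of G protein signalling. It stood at 38.2, 34.9 and 27.3 CPM in WT1 to WT3 and at 30.1, 33.3 and 38.5 CPM in KO1 to KO3. WT1 and KO3 were nearly level at the top and WT3 was lowest, so the order of libraries crossed the genotypes. The log2 fold change was 0.021 (SE 0.12, edgeR adjusted p = 0.981). Pcp2 shares 941 exonic bases with Pet100 on the opposite strand.

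Calb1 (ENSMUSG00000028222.2, chr4:15881264-15908064) encodes the calcium buffer calbindin, abundant in Purkinje dendrites. It had 181, 159 and 158 CPM in WT1 to WT3 and 149.9, 152 and 160 CPM in KO1 to KO3. KO1 and KO2 lay below every WT library, and KO3 lay between them. Its log2 fold change of -0.11 (SE 0.057) had the smallest unadjusted p-value of the 10 genes, and the edgeR adjusted p-value was 0.659, with a 95% interval from -0.24 to 0.015.

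Car8 (ENSMUSG00000041261.9, chr4:8143362-8239041) encodes a carbonic anhydrase relative without enzyme activity that binds the IP3 receptor of Purkinje cells. It was at 218, 164 and 169 CPM in WT1 to WT3 and at 166, 180 and 190 CPM in KO1 to KO3. WT1 stood above all other libraries, and the other WT libraries lay near KO1. The log2 fold change was -0.039 with a 95% interval from -0.25 to 0.17. Without WT1 it was 0.11, the highest value over the alternatives.

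En2 (ENSMUSG00000039095.8, chr5:28165694-28172166), a homeobox factor that patterns midbrain and cerebellum, had 17.5, 14.0 and 16.4 CPM in WT1 to WT3 and 14.9, 18.2 and 19.1 CPM in KO1 to KO3. Barhl2 (ENSMUSG00000034384.11, chr5:106452523-106458166) had 7.11, 6.60 and 5.52 CPM in WT1 to WT3 and 5.29, 5.88 and 6.66 CPM in KO1 to KO3. En2 had the highest and Barhl2 one of the lowest log2 fold changes of the 10, at 0.12 (SE 0.11) and -0.11 (SE 0.13), and the groups overlapped for both. Their edgeR adjusted p-values were 0.803 and 0.856. With 182 to 259 counts per library, Barhl2 was the shallowest of the 10, and counting alone gives it a coefficient of variation (CV) of 6.87%.

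**Figure D2:**
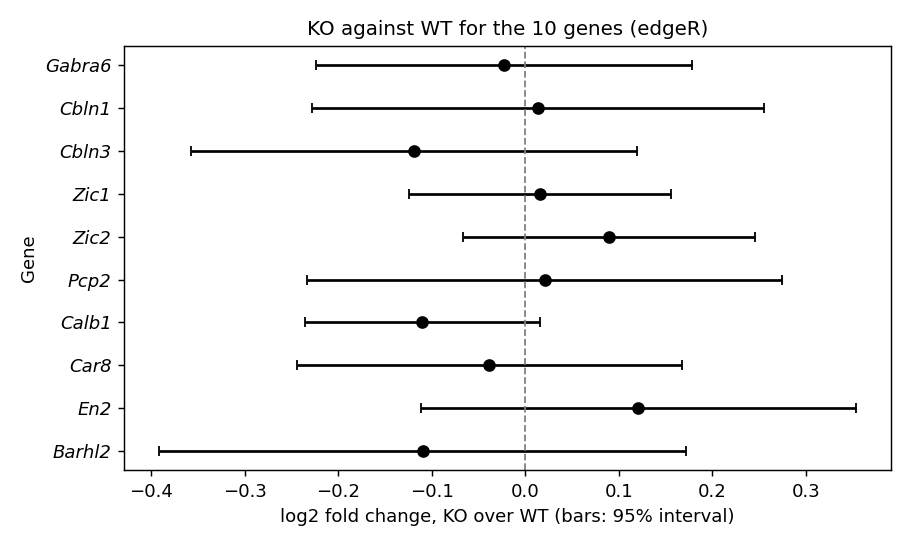
Log2 fold change of KO over WT for the 10 genes (points) with 95% intervals from edgeR's fit (bars); the dashed line marks no difference. All 10 intervals include 0, the lowest bound being -0.39 (Barhl2) and the highest 0.35 (En2).

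Every 95% interval included 0 and lay between -0.39 and 0.35 on the log2 scale. Log2 fold changes themselves ran from -0.12 (Cbln3) to 0.12 (En2).

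Levels of different genes were compared as CPM per kilobase of merged exon. In this measure the 10 genes were ordered Cbln3 (51.5), Car8 (47.0), Gabra6 (44.6), Cbln1 (43.9), Calb1 (33.0), Zic1 (30.6), Zic2 (18.6), Pcp2 (18.5), En2 (4.72) and Barhl2 (2.67), as means of 6 libraries. The first 4 overlapped with their neighbours: Cbln3 exceeded Car8 in 4 of 6 libraries and Gabra6 exceeded Cbln1 in 3 of 6. Calb1 and Zic1 overlapped, as did Zic2 and Pcp2. Cbln1 and Calb1, Zic1 and Zic2, Pcp2 and En2, and En2 and Barhl2 separated in all 6 libraries without overlap.

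The libraries differed from each other in a way that the 10 genes shared and that did not follow genotype. Expressed as the log2 difference from each gene's own mean over the 6 libraries, all 10 genes were above their mean in WT1 and all 10 in KO3. In WT3 and in KO1 all 10 were below it. The smallest of these differences was 0.0029, for Calb1 in KO3, and the signs in WT1, WT3, KO1 and KO3 were the same with DESeq2 size factors and with total counts. WT2 and KO2 stood between, with 4 and 3 genes above the mean. Within its own group, WT1 was the highest library for all 10 genes, KO3 was the highest for 9 (all but Gabra6) and KO1 the lowest for 9 (all but Cbln1), and WT3 was the lowest for 7. The same signs in those 4 libraries were found in 7.76% of all genes tested. This pattern was described after the values were seen, and the 10 genes are not independent of each other, because each library is 1 piece of tissue.

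**Figure D3:**
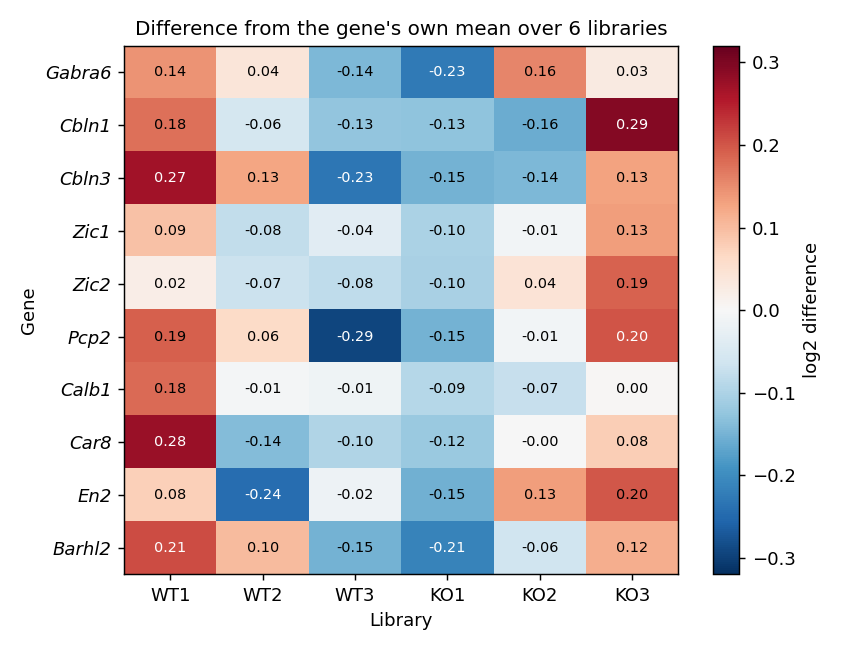
Log2 difference of each of the 10 genes (rows) from its own mean over the 6 libraries (columns), coloured from blue (below) to red (above) with the value printed. The WT1 and KO3 columns are above 0 in all 10 rows, and the WT3 and KO1 columns are below 0 in all 10.

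Within WT, the level in WT1 was between 1.07 and 1.41 times that in WT3 over the 10 genes, with a median of 1.23. Within KO, KO3 was between 1.07 and 1.34 times KO1, with a median of 1.22. Over all genes tested the same medians were 1.001 and 1.003. Cbln3 (1.41) and Pcp2 (1.40) differed most between WT1 and WT3, and Cbln1 (1.34) differed most between KO3 and KO1. The fold of KO over WT, by comparison, ran from 0.921 (Cbln3) to 1.09 (En2).

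Summed over the 5 granule cell genes, the level was 811, 728 and 653 CPM in WT1 to WT3 and 652, 695 and 799 CPM in KO1 to KO3. The WT mean was 731 ± 79.0 CPM and the KO mean 715 ± 75.6 CPM (SD, n = 3), with a CV over 6 libraries of 9.64%. The 3 Purkinje cell genes summed to 438, 358 and 354 CPM in WT1 to WT3 and to 346, 365 and 389 CPM in KO1 to KO3. The WT mean was 383 ± 47.3 CPM and the KO mean 367 ± 21.4 CPM (SD, n = 3), and the CV was 9.09%. That CV fell to 4.52% without WT1, so the spread of the Purkinje sum rested on that library. In all, the 10 genes took between 0.102% and 0.127% of counts, a 1.25-fold range from KO1 to WT1.

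Single genes varied by more than counting error. The CV over the 6 libraries was lowest for Zic1 (6.60%) and Calb1 (6.96%) and highest for Cbln3 (14.0%), Cbln1 (13.6%) and Pcp2 (13.2%), whereas counting alone gives between 1.08% and 6.87%. The median CV of the 10 was 11.6%, beside 8.83% over all genes tested and 7.28% over those with a mean of at least 1 CPM. The SD of log2 CPM within groups had a median of 0.18 over the 10 genes and 0.098 over tested genes of at least 1 CPM, of which 22.2% reached the median of the 10.

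Other genes of the same cells, from lists written for this comparison, were read beside the 10. Of 14 other granule cell genes, 0 were called higher and 0 lower in KO (0 also without adjustment), with a median log2 fold change of -0.0062. Fat2, a giant cadherin of parallel fibres and the most abundant of them, was at 537, 479 and 367 CPM in WT1 to WT3 and at 398, 431 and 541 CPM in KO1 to KO3. WT1 and KO3 were again highest and WT3 and KO1 lowest. Etv1, an ETS factor of maturing granule cells, varied less, between 186 and 222 CPM, with KO2 highest. Tlx3, the gene of this list with the smallest unadjusted p-value, was rare, with 8 to 16 counts per library, and its log2 fold change was 0.48 (SE 0.31, edgeR adjusted p = 0.731). Its groups did not overlap, which held for 1 of the 14 genes, against 14.4% of all genes tested. Of the 14 genes, 13 were above their mean in WT1 and 12 in KO3, while 6 were above it in WT3 and 2 in KO1.

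Of 18 other Purkinje cell genes, 0 were called in either direction, while without adjustment 1 was lower (3.38% of all genes tested) and 0 were higher. That gene was Rora, the nuclear receptor that Purkinje cells need to mature, at 287, 286 and 267 CPM in WT1 to WT3 and at 249, 262 and 265 CPM in KO1 to KO3. Its log2 fold change was -0.11 (SE 0.046, edgeR adjusted p = 0.606). Its KO and WT libraries did not overlap, which held for 1 of the 18 genes, against 14.4% of all genes tested. Itpr1, the IP3 receptor and the most abundant of the list, was at 1601, 1457 and 1418 CPM in WT1 to WT3 and at 1361, 1505 and 1544 CPM in KO1 to KO3. WT1 and KO3 were the 2 highest. Aldoc, the zebrin II antigen of Purkinje cell stripes, which astrocytes also express, varied little (CV 3.72%). Over the list, 17 of 18 genes were above their mean in WT1 and 13 in KO3, and 3 and 5 in WT3 and KO1. WT1 was the highest library for 12 of the 18.

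Among 7 genes of other cerebellar cells, 0 were called, and none had an unadjusted p-value under 0.05 in edgeR's test. DESeq2, which left some genes of low count without an adjusted p-value, and limma-voom also called 0. Lgi2, found in Golgi cells, averaged 130 ± 2.11 CPM (WT) and 121 ± 8.58 CPM (KO), and Prkcd at 67.3 ± 3.05 and 65.2 ± 7.48 CPM (SD, n = 3). Gdf10, a marker of Bergmann glia, was at 19.6 ± 1.69 and 22.2 ± 1.92 CPM (SD, n = 3; edgeR adjusted p = 0.628). The median difference of this list from the gene means lay between -0.075 (WT2) and 0.051 (KO2). Above their mean in WT1 and KO3 and below it in WT3 and KO1, as the 10 genes were, were 2 of these 7 genes, 7 of the 14 other granule cell genes (50%) and 7 of the 18 other Purkinje cell genes (38.9%), beside 7.76% of all genes tested.

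Markers of other brain regions and of meninges were read in the same libraries, and edgeR called 0 genes of any of these lists. Without adjustment, where 4.54% of all genes tested were higher and 3.38% lower, 1 gene was higher and 1 lower of 12 brainstem and midbrain genes, 0 and 1 of 14 cortex and hippocampus genes, 0 and 2 of 9 striatum genes, 1 and 0 of 7 thalamus genes, 3 and 0 of 5 olfactory bulb genes, and 0 and 2 of 8 meningeal genes. For the 14 genes of cortex and hippocampus the median difference from the gene means was lowest in WT1, at -0.10, and highest in WT3, at 0.10. The ratio of the summed granule cell genes to the sum of this list was 1.12, 0.922 and 0.815 in WT1 to WT3 and 0.863, 0.931 and 1.05 in KO1 to KO3. This ratio had a CV of 11.98%, against 9.64% for the granule cell sum alone. The sums for striatum and thalamus against the same list had CVs of 4.99% and 3.84% and that for meninges 8.80%, below the granule cell ratio. Those for brainstem and midbrain (12.5%) and olfactory bulb (28.2%) were above it, each with 1 library apart. The brainstem and midbrain ratio was 0.0344 in KO1 and from 0.0245 (KO3) to 0.0296 (WT3) elsewhere. The olfactory bulb ratio was 0.113 in KO2 and from 0.0483 (WT2) to 0.0792 (KO1) elsewhere. Against the cortex and hippocampus list, the CV was 12.2% for the 3 Purkinje cell genes and 12.3% for other granule cell genes. It was 7.74% for other Purkinje cell genes and 4.90% for other cerebellar cell genes. The ratio of the 3 Purkinje cell genes was 0.604 in WT1 and from 0.441 (WT3) to 0.509 (KO3) elsewhere. Abundant genes weigh most in such sums. Itpr1 (1481 CPM) and Aldoc (626 CPM) led the other Purkinje cell genes (3620 CPM in all). Lgi2 (126 CPM) and Prkcd (66.2 CPM) led the other cerebellar cell genes (358 CPM in all). How much of these sums came from outside the cerebellum was not tested.

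The 12 tested genes of brainstem and midbrain, 6 of them Hox genes of caudal brainstem and spinal cord, had the highest median CV of the lists read here, 45.3%. Their median difference was 0.56 in WT3 and 0.53 in KO1, the 2 libraries with the lowest level of the 10 genes. It was 0.014 in WT1, the library with the highest sum of the 10 genes, and -0.062 in WT2. In KO2 and KO3 it was -0.55 and -0.29, so it was not lowest where the 10 genes were highest. The list was not uniform: in WT3 8 of the 12 genes were above their mean, among them all 6 Hox genes, while En1 (-0.38), Gata2 (-0.33), Gata3 (-0.21) and Otx2 (-0.095) were below it. Hoxb5 had 23, 40 and 47 counts in WT1 to WT3 and 60, 9 and 17 in KO1 to KO3. Hoxa5 had 5, 22 and 39 counts in WT1 to WT3 and 35, 1 and 10 in KO1 to KO3. These counts are small, and Hoxb8, with 0 to 21 counts, was not tested. Slc6a5, the glycine transporter of Golgi cells that brainstem and spinal neurons also carry, comes from the list of other cerebellar cells and was picked after its values were seen. It was highest in KO1 and WT3 and lowest in KO2 and KO3, at 40.9, 34.45 and 50.2 CPM in WT1 to WT3 and 52.0, 32.1 and 26.1 CPM in KO1 to KO3. Of its list, Lgi2 was likewise lowest in KO3 (113 CPM) and then KO2 (120.4 CPM), with WT3 highest (132 CPM), while the others had other orders, Eomes, Grm2 and Gdf10 being highest in KO2 and Prkcd and Sorcs3 in KO3.

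Olfactory bulb genes had another order, with a median difference of 0.67 in KO2 and -0.68 in WT2. Of these 5 genes 0 were called, 3 were higher in KO without adjustment (4.54% of all genes tested), and 3 did not overlap between the groups (14.4% of all genes tested). Cdhr1, a cadherin of mitral and tufted cells, was at 27.3, 21.1 and 28.7 CPM in WT1 to WT3 and at 34.0, 44.5 and 29.4 CPM in KO1 to KO3. Meningeal genes, read because meninges express Zic1, were at their highest in KO3 (0.19) and WT3 (0.14) and lowest in KO2 (-0.19). They were thus high in 1 library where the 10 genes were high and in 1 where they were low. The part of any of these lists in the values of the 10 genes was not tested.

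**Figure D4:**
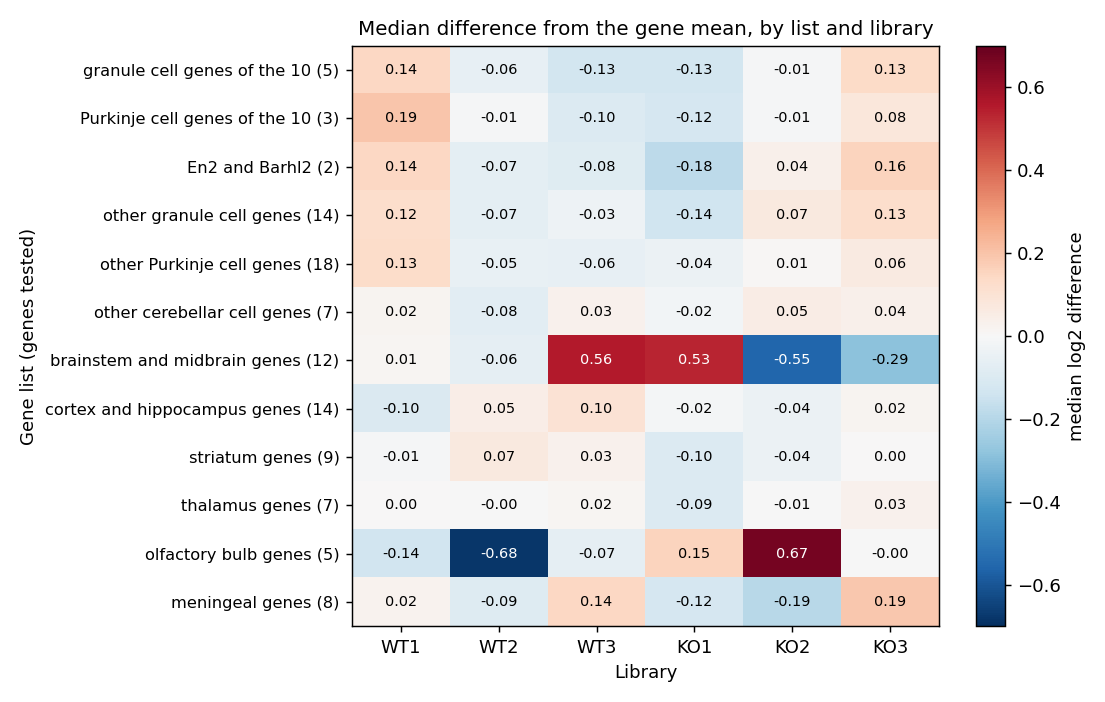
Median log2 difference from each gene's mean over the 6 libraries (columns), for the 10 cerebellar genes in 3 rows and the other lists below, with the number of genes tested in brackets. The cerebellar granule and Purkinje rows are highest in WT1 and KO3, the brainstem row in WT3 (0.56) and KO1 (0.53), and the olfactory bulb row in KO2 (0.67).

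The genes whose profile over the 6 libraries lay nearest to that of Gabra6 were sought among 17298 tested genes of at least 1 CPM, by the root mean square difference of centred log2 CPM. The 5 nearest were Bcl2l15 (0.024), St8sia5 (0.042), Gm48655 (0.045), Gm47728 (0.046) and Spidr (0.047), where the median over all genes was 0.17. None of these is in the lists read here. Gm48655, Gm47728 and Spidr were rare, at means of 1.97, 1.95 and 3.51 CPM. These levels are below that of Barhl2 (6.18 CPM), for which counting alone gives a CV of 6.87%. The 5 are the smallest of 17298 distances over 6 libraries, and a link to Gabra6 was not tested. Of the lists, the nearest were Rgs8, a Purkinje cell regulator of G protein signalling, at 0.074 (rank 64), and Itpr1 at 0.083 (rank 122). The nearest of the other 9 genes was Barhl2 at 0.10 (rank 536). En2 (rank 5231), Cbln3 (rank 5432) and Cbln1 (0.18, rank 9603) were the farthest, Cbln1 farther than the median gene.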

How the data were processed

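Long RNA of whole mouse brain was measured in 6 libraries. Per the labels, RNA above 200 bp went into TruSeq Total RNA libraries, and the submitters' processing notes name cutadapt 1.9.1 and STAR 2.7.0f without roles. The authors deposited whole-number read counts per gene, not normalized; the genome build and annotation are not given in the sources used here, and all 55450 identifiers equal those of GENCODE M21 (GRCm38), which supplied names and positions. Column 4, the stranded count, held 94.6% to 94.8% of stranded counts and was used.

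In R 4.3.3, filterByExpr in edgeR 4.0.16 left 21237 genes, which were scaled with TMM factors and tested with edgeR's quasi-likelihood test on genotype alone in all 6 libraries. Adjustment was by Benjamini-Hochberg over all genes tested. Standard errors are the fold change divided by the square root of F, and intervals use the t distribution at the fit's degrees of freedom. Logarithms for differences between libraries took CPM plus 0.05. DESeq2 1.42.0 and limma-voom (limma 3.58.1) were alternatives. The 10 genes, the lists and the tests were chosen with earlier results of these data known. Named from each list were the 2 genes with the highest mean CPM and the one with the smallest unadjusted p-value, plus any called gene and the 5 nearest profiles to Gabra6. Hoxa5, Hoxb5, Hoxb8, En1, Gata3, Slc6a5, Eomes, Grm2, Sorcs3, Doc2g and Rgs8 were named after their values were seen. Libraries of 1 group differed beyond counting noise (chi-square per degree of freedom 4.08 to 8.69), so none was merged. The p-values set the difference between KO and WT against the spread between libraries of a group.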

Additional observations from a re-analysis of the deposited data

How the results depend on the processing

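Over 14 alternatives to the test of KO against WT, 0 of the 10 genes passed the threshold in any, though DESeq2 gave an adjusted p-value for 7 of them alone. The median log2 fold change of the 10 lay between -0.096 and 0.087, both from leaving out 1 library. That of Cbln1 lay between -0.15 and 0.11 and that of Gabra6 between -0.11 and 0.076, so their signs are not settled. Those of Zic1, Pcp2 and Car8 are not settled either, as each turned in 2 alternatives. Cbln3, Zic2, Calb1, En2 and Barhl2 kept their sign in all 14. These fits reuse the same libraries, so a kept sign does not settle the direction. In the main analysis the intervals of all 10 genes included 0, and the log2 fold change of Cbln3 was -0.0067 without WT1. The number of genes called over the whole table was 2 in the main analysis, 298 with no low-count filter, 26 with the DESeq2 Wald test and 4 with the replicate block, and from 2 to 5 when 1 library was left out. The cause was not tested. With no low-count filter, where 298 of 37245 genes tested were called, the lists held a few of them. These were 1 gene of other cerebellar cells (Eomes), 1 of striatum (Penk) and 4 of olfactory bulb (Eomes again, Tbx21, Cdhr1 and Doc2g). Deviations of same-numbered WT and KO libraries correlated across genes at -0.0016, -0.066 and -0.11. For differently numbered libraries the correlations ran from -0.15 to 0.21. The main test did not pair libraries by number. Deviations taken within groups of 3 libraries cannot exclude a pairing. Leaving out 1 library moved the CV of the Purkinje cell sum between 4.52% and 10.1%, the lowest without WT1, and that of the granule cell sum between 8.68% and 10.8%. Over all genes tested, the median log2 fold change was -0.00028 with DESeq2 size factors and -0.0098 with total counts. Among the 10 genes, counting error was largest for Barhl2.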

Other observations

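Gata2, a transcription factor of midbrain and brainstem inhibitory neurons, was at 3.87, 4.46 and 3.61 CPM in WT1 to WT3 and at 5.18, 6.17 and 4.53 CPM in KO1 to KO3. Every KO library lay above every WT library (log2 fold change 0.41, SE 0.14, edgeR adjusted p = 0.579). Groups did not overlap for 14.4% of all genes tested. Rorb, a nuclear receptor of cortical layer IV and thalamus, was at 96.1, 100.5 and 103 CPM in WT1 to WT3 and at 86.7, 85.5 and 89.5 CPM in KO1 to KO3 (log2 fold change -0.20, SE 0.048, edgeR adjusted p = 0.576). Penk, the enkephalin precursor of striatal neurons, averaged 149.7 ± 13.0 CPM (WT) and 130 ± 4.57 CPM (KO; SD, n = 3; log2 fold change -0.20, SE 0.062, edgeR adjusted p = 0.576). Dcn, a proteoglycan of meningeal fibroblasts, averaged 18.8 ± 0.610 CPM (WT) and 15.7 ± 1.19 CPM (KO; SD, n = 3; log2 fold change -0.26, SE 0.076, edgeR adjusted p = 0.576). Gbx2, a homeobox factor of thalamus, was at 0.926 ± 0.146 CPM (WT) and 1.57 ± 0.534 CPM (KO; SD, n = 3), and Tbx21, a T-box factor of mitral and tufted cells, at 0.666 ± 0.246 and 1.29 ± 0.197 CPM. Their log2 fold changes were 0.76 (SE 0.26, edgeR adjusted p = 0.579) and 0.94 (SE 0.27, edgeR adjusted p = 0.576). For the other genes named as the most abundant of their lists, the log2 fold change was 0.079 for Otx2, -0.074 for Rasgrf2, 0.11 for Cux2, 0.056 for Pde10a, -0.096 for Slc17a6, -0.057 for Plekhg1, 0.23 for Th, -0.018 for Col1a2 and -0.16 for Col1a1. None of these genes passed the threshold over all genes tested.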
